A study of Homo sapiens with 18 samples.

Results

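Respiratory complex I was described here through 42 nuclear genes, 34 genes of its subunits and 8 genes of its NDUFAF assembly factors, measured by RNA sequencing in human myeloma cells. Members were the genes with a symbol made of NDUF, one of the letters A, AB, AF, B, C, S or V, and a number, and with at least 10 raw counts in at least 3 libraries. The pattern matched 46 symbols, 42 of them reached the minimum, and the count table held 43735 rows, of which 14403 reached it. Rows are called genes below, though some are numbered copies of a symbol. The study asked how myeloma cells respond to ferroptosis, an iron-dependent death with lipid peroxidation, in a glucocorticoid-resistant line (MM1R) and a glucocorticoid-sensitive line (MM1S) of common origin. Each line was sequenced untreated, after 3 h with 5 µM RSL3, an inhibitor of the lipid peroxide-reducing enzyme GPX4, and after the same RSL3 dose preceded by 2 h with 2 µM of the lipid radical scavenger ferrostatin-1 (Fer-1), with 3 libraries per group and 18 in all. The 3 libraries of a group were cell passages 4, 6 and 7 in MM1R and 16, 22 and 23 in MM1S. Each passage thus gave 1 untreated, 1 RSL3 and 1 Fer-1 and RSL3 library, the last also called a Fer-1 library. Cells with Fer-1 alone were not among the groups. No passage number was shared between the lines, and the difference between the lines and that between early and late passages cannot be told apart.

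Complex I is the largest enzyme of the mitochondrial respiratory chain. Its matrix arm takes electrons from NADH and passes them along iron-sulfur clusters to ubiquinone, and its membrane arm pumps protons. Core subunits carry the cofactors and the pumps, accessory subunits surround them, and assembly factors join the modules and leave the finished enzyme. The enzyme is also a known source of superoxide, and ubiquinol can trap lipid radicals in membranes, which ties it to the literature on ferroptosis. The pump subunits are encoded in mitochondrial DNA, and the count table used here had 0 rows for them, so only nuclear genes are described. NDUFAB1 is the mitochondrial acyl carrier protein, and NDUFA4 was named as a complex I subunit and later placed in cytochrome c oxidase. Both were counted with the subunits by symbol.

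The promoters of 4 members, picked from those that passed a test or were near to one, are printed here. NDUFV2 and NDUFV3, also called between the lines, and NDUFA8, also near a call, are not printed. NDUFS7 (19:1383526–1395588 in hg19, plus strand) was higher in untreated MM1R than in untreated MM1S cells. NDUFAF1 (15:41679416–41701601, minus strand) was called higher in MM1R only in the average over the 3 treatments, where the p-values are too small. NDUFC1 (4:140188034–140223705, minus strand) was lower after Fer-1 and RSL3, and NDUFAF7 (2:37458774–37480546, plus strand) had the lowest p after RSL3. Each stretch holds 250 bases before and 50 from the annotated start, 5′ to 3′ on the gene's strand, from RefSeq on GRCh38.p14, and lies at chr19:1383657-1383956 (plus strand) for NDUFS7, chr4:139302502-139302801 (minus) for NDUFC1, chr2:37231408-37231707 (plus) for NDUFAF7 and chr15:41402447-41402746 (minus) for NDUFAF1. Capitals mark matches to 4 short motifs searched on both strands, CCGGAA of the ETS factor GABP, GCGCA, any base and GCGC in a row of NRF1, AANATGGC of YY1 and AAGGTCA of the estrogen-related receptors (ERR).
NDUFS7: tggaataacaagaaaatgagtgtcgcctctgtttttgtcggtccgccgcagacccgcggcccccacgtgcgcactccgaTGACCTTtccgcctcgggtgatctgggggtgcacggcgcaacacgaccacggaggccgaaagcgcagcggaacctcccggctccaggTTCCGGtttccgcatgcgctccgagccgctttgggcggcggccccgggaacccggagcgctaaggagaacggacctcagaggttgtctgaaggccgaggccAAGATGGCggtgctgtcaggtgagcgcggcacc
NDUFC1: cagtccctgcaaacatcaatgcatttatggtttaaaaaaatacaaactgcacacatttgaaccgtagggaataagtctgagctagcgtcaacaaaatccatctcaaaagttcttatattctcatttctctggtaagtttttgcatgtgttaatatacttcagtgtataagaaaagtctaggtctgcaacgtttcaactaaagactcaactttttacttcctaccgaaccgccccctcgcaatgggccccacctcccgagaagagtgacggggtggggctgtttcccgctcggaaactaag
NDUFAF7: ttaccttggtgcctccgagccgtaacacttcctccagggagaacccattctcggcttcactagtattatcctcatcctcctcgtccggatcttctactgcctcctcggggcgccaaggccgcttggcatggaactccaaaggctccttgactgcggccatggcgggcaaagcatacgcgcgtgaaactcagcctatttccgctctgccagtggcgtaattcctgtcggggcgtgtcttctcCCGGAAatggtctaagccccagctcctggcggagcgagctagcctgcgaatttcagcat
NDUFAF1: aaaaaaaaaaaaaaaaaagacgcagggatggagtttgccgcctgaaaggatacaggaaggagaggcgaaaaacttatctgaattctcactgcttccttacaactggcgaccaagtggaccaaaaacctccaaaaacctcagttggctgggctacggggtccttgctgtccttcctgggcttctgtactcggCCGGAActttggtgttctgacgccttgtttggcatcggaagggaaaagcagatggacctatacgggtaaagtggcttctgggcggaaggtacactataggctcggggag
The NDUFS7 stretch held an ERR match at -171, an ETS match at -84 and a YY1 match at 17 from the start, the NDUFAF7 stretch an ETS match at -9 and the NDUFAF1 stretch an ETS match at -59. The NDUFC1 stretch held none of these letters.

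A promoter entry of 300 bases was found for 35 of the 42 members, and 21 of them held at least 1 of the 4 motifs. The YY1 letters were in 8 of 35 member promoters (22.9%), against 10.1% of the promoters of tested genes and 6.82% of all promoters of that length. All 8 were subunit genes, and none of the 7 assembly factor promoters held them. The ERR letters were in 4 (11.4%), against 2.47% and 3.97%, and the NRF1 letters in 6 (17.1%), against 11.5% and 6.28%. The ETS letters were in 9 (25.7%), against 29% of tested genes and 17.6% of all promoters. A match describes letters and was not tested as a binding site.

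Libraries held 17635438 to 19368343 counts, and the members took 0.344% to 0.465% of them. All 8 plasma cell markers were detected in both lines (summed 4381 to 6243 CPM, counts scaled to a common library size), while 1 of 3 T cell, 1 of 3 myeloid and 1 of 3 stromal markers reached 10 counts in 3 libraries, with summed levels of 3.42 to 11.8, 0.116 to 1.29 and 0.502 to 19.6 CPM. HMOX1, SLC7A11, CHAC1, GCLM and SRXN1, known from earlier results of these data, are given only for the scale of the RSL3 response. Together they had 127 to 216 CPM in untreated libraries, 579 to 2779 after RSL3 and 1203 to 2184 after Fer-1 and RSL3. HMOX1 alone had 2298 CPM in the RSL3 library of MM1S passage 16. A pair of libraries stood apart. The Fer-1 and RSL3 library of MM1R passage 6 had 50.2 CPM of NR3C1, the glucocorticoid receptor that separates the lines, where the other two of its group had 16.9 and 15.3 and MM1S libraries had 89.8 to 391.5. The RSL3 library of MM1S passage 16 had the highest NR3C1 (391.5 CPM) and the highest summed stromal markers (19.6 CPM). Members moved together in some libraries. In untreated MM1R cells of passage 7, 41 of 42 members lay above their line mean and the subunits' median was 0.36 log2 units above it, while in passage 4 the subunits' median was -0.22 and 4 members lay above. Complexes II to V deviated likewise in the passage 7 library, by 0.26 to 0.35, as did genes with transcripts under 1000 bp (0.16). The part of these libraries in the results was not tested beyond leaving them out.

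NDUFS1 and NDUFS3, core subunits of the matrix arm, and the accessory subunits NDUFA3 and NDUFA6 were listed at 0 to 1 counts in every library and are not described further. The count table listed 2363 symbols more than once, with numbered copies, and protein-coding symbols with copies were under 10 counts in every library more often (928 of 1231, 75.4%) than those without (5724 of 17623, 32.5%). The 4 symbols all belong to the group with copies, and what their rows say of the transcripts cannot be told from this table.

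The most abundant members per length encoded the matrix arm's electron path and small membrane arm subunits. Levels were compared as CPM per kilobase of the canonical transcript, as the mean over 18 libraries with its SD. NDUFV2, which carries an iron-sulfur cluster beside the NADH site, was highest at 435.6 ± 42.7 CPM per kb (SD, n = 18). NDUFA1 (251.4 ± 31.4), NDUFB4 (231.2 ± 27.7), NDUFB11 (227.4) and NDUFS5 (224.1) of the membrane arm followed, and NDUFV1, which binds NADH and its flavin, had 191.4. Of the NDUFV2 transcript, 90.0% is shared with another annotated gene and 51.3% of the NDUFS7 transcript with 2 others. NDUFB4 has 12 named pseudogenes, so these levels may hold reads of other genes. Over 50% of the transcript is shared in 6 members.

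Assembly factors were less abundant than subunits per length, with a median of 20.3 against 134 CPM per kb. NDUFAF8 (106.7), which stabilises NDUFAF5, and NDUFAF3 (99.99), which works in pair with NDUFAF4, were the highest assembly factors, and NDUFAF5, which modifies an arginine of NDUFS7, was the lowest of all 42 members at 3.16. In the order of levels, 32 of the 41 neighbouring pairs lay closer than the larger SD of the pair. Across the libraries the members had a median coefficient of variation of 12.4%, against 21.2% over all 14281 genes tested. Their median level was also higher, 85.8 CPM against 21.05, and this comparison was not matched for level. NDUFS7 varied most (23.4%) and NDUFAF5 least (7.35%).

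**Figure D1:**
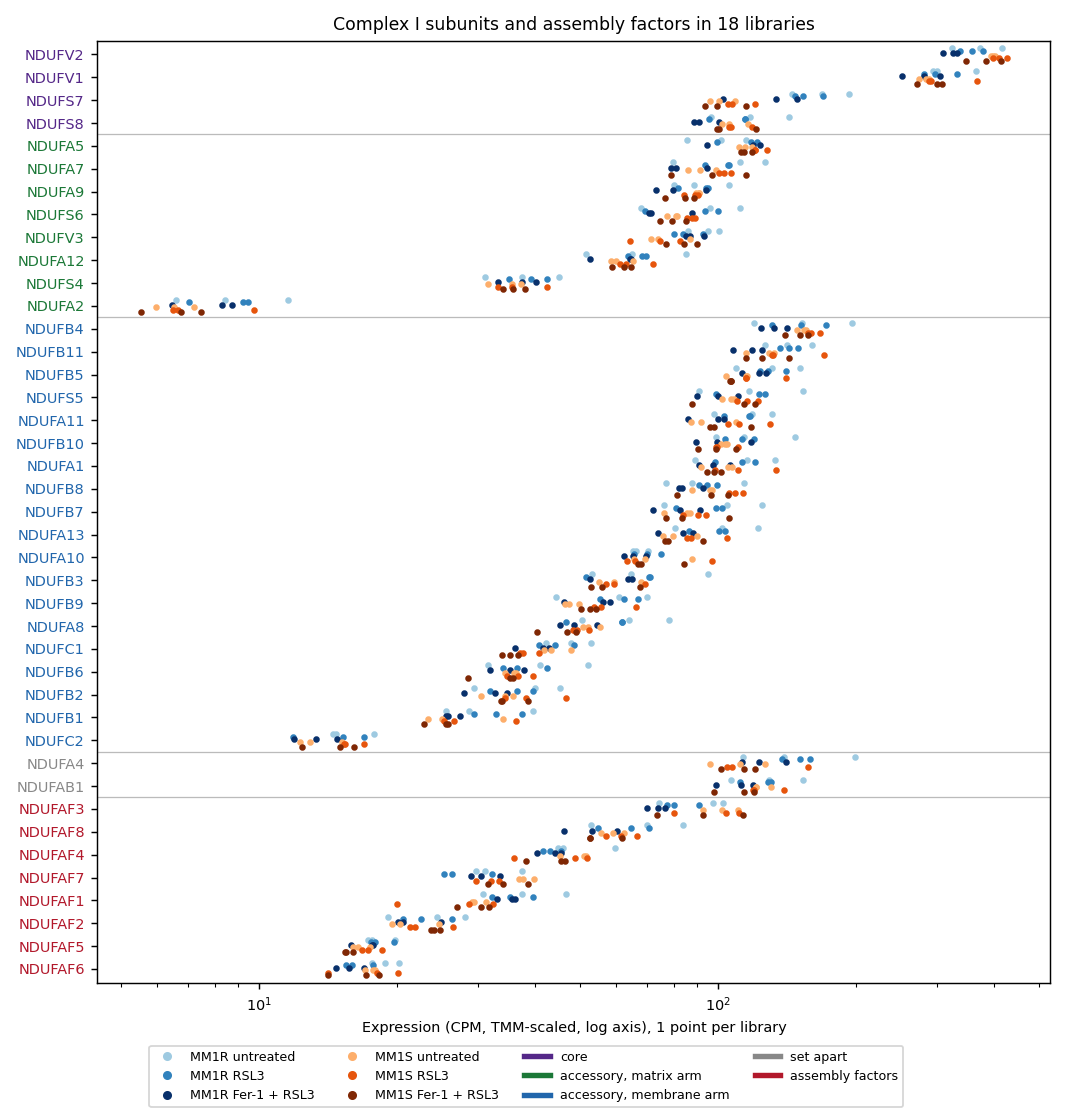
Level of 41 of the 42 members in CPM (not divided by length) on a log axis, with 1 point per library coloured by group, and the genes arranged by role and then by level. NDUFV2 lies highest (mean 373 CPM over 18 libraries), the assembly factors run from NDUFAF3 (90.2) down to NDUFAF5 (17.2) and NDUFAF6 (17.1), and the points of a gene mostly span a narrow range.

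RSL3 left the complex I genes close to their untreated levels after 3 h. None of the 42 members was called in either line at a false discovery rate (FDR) under 0.05, where 3.36% of all genes tested were called in MM1R and 3.67% in MM1S, nor in the average over both lines, where 15.5% were. At an unadjusted p under 0.05, 0 members stood out in MM1R (18.5% of genes), 1 in MM1S (19.5%) and 1 in the average (30.2%), NDUFAF7 in both cases. DESeq2 called 0 members in MM1R, 0 in MM1S and 1, NDUFAF7, in the average, beside 7%, 7.84% and 19.1% of the genes it gave an adjusted p. The 95% interval of the fold change lay within 1.5-fold of no change for 42 of 42 members in MM1R and 40 of 42 in MM1S, the exceptions being NDUFA2 and NDUFB9, against 43.2% and 41.5% of all genes. In the average it did so for all 42 and for 55.2% of genes. CPM are shares of a library, and fewer cells of a kind and less RNA per cell cannot be told apart in them. HMOX1, for scale, rose by 5.05 log2 units in MM1R and 6.53 in MM1S.

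Core subunits of the matrix arm lay close to no change in the average over both lines. The log2 fold changes were 0.01 for NDUFS7, which carries the last cluster before ubiquinone, -0.05 for NDUFS8, 0.04 for NDUFV1 and 0.00 for NDUFV2, with SE of 0.071 to 0.096. In untreated and RSL3-treated cells NDUFV1 had group means of 319.5 ± 39.8 and 303 ± 26.0 CPM in MM1R (SD, n = 3) and 282 ± 7.49 and 315 ± 44.3 in MM1S, and NDUFS8 had 119 ± 22.9 and 108 ± 10.7 in MM1R and 108 ± 7.33 and 110 ± 7.12 in MM1S. These means differed by less than the larger SD of each pair.

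NDUFAF7, a mitochondrial methyltransferase needed for assembly, was the member nearest to a call. Untreated MM1R libraries had 37.4, 31.0 and 29.7 CPM in passages 4, 6 and 7, RSL3 libraries 26.4, 32.1 and 25.3, and Fer-1 and RSL3 libraries 30.4, 33.4 and 29.0. Untreated MM1S libraries had 39.7, 36.8 and 37.5 CPM in passages 16, 22 and 23, RSL3 libraries 33.3, 32.0 and 29.6, and Fer-1 and RSL3 libraries 38.5, 34 and 31.5. The untreated and RSL3 libraries did not overlap in MM1S and overlapped in MM1R, where passage 6 went the other way. The log2 fold change averaged over both lines was -0.25 (SE 0.085, 95% interval -0.43 to -0.07, FDR 0.0597), and with passage as a block in the fit the FDR was 0.0174. The block, which compares treatments within a passage, called 30.4% of all genes in this comparison and 2 members, NDUFAF7 and NDUFA5.

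NDUFA5, an accessory subunit of the matrix arm, was higher with RSL3 in each of the 6 passages. Untreated MM1R libraries had 85.5, 101.3 and 114.9 CPM, RSL3 libraries 99.5, 118 and 121.7, and Fer-1 and RSL3 libraries 94.4, 123.7 and 119.2. In MM1S the untreated libraries had 111.2, 114.5 and 118.5 CPM, the RSL3 libraries 127.9, 120.3 and 120.4, and the Fer-1 and RSL3 libraries 113.7, 112.3 and 118.6. The groups overlapped in MM1R and did not in MM1S. Its log2 fold change was 0.13 (SE 0.085, FDR 0.314), with an FDR of 0.0496 under the block. It was the 1 member higher in all 6 passages, where 13.8% of all genes were, and 0 members were lower in all 6, where 14.8% were. NDUFA5 has 12 named pseudogenes.

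The other members with the smallest p in each direction stayed further from a call. NDUFB9, a membrane arm subunit that holds an acyl carrier protein, had 44.3, 61.0 and 69.9 CPM in untreated and 55.3, 67.1 and 62.4 in RSL3-treated MM1R cells, 49.7, 47.3 and 46.5 and then 66.2, 53.7 and 55.5 in MM1S cells, and 56.2, 46.1, 58.1, 50.3, 52.6 and 54.2 after Fer-1 and RSL3 in MM1R and MM1S (log2 fold change for RSL3 0.18, SE 0.10, FDR 0.243). NDUFB8, also of the membrane arm, had 77.0, 87.6 and 113.7 and then 91.0, 94.8 and 99.6 CPM in MM1R, 87.6, 96.9 and 96.0 and then 113.4, 105.9 and 109 in MM1S, and 82.3, 83.4, 92.6, 81.4, 105 and 96.6 after Fer-1 and RSL3 (0.13, FDR 0.352). Untreated and RSL3 libraries of both genes overlapped in MM1R, where passage 7 was lower with RSL3, and not in MM1S. Of the NDUFB8 transcript 72.0% is shared with other annotated genes, and 23.9% of the NDUFB9 transcript, so reads of other genes may be included. NDUFAF4, which joins the ubiquinone module to the membrane, had 46.0, 44.8 and 59.6 and then 43.1, 45.5 and 41.5 CPM in MM1R, 45.3, 51.0 and 51.7 and then 35.9, 48.9 and 51.7 in MM1S, and 45.5, 44.1, 40.3, 38.2, 45.5 and 46.3 after Fer-1 and RSL3 (-0.16, FDR 0.293), with overlap in both lines. NDUFC1, described below, had -0.15 (SE 0.077, FDR 0.20).

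**Figure D2:**
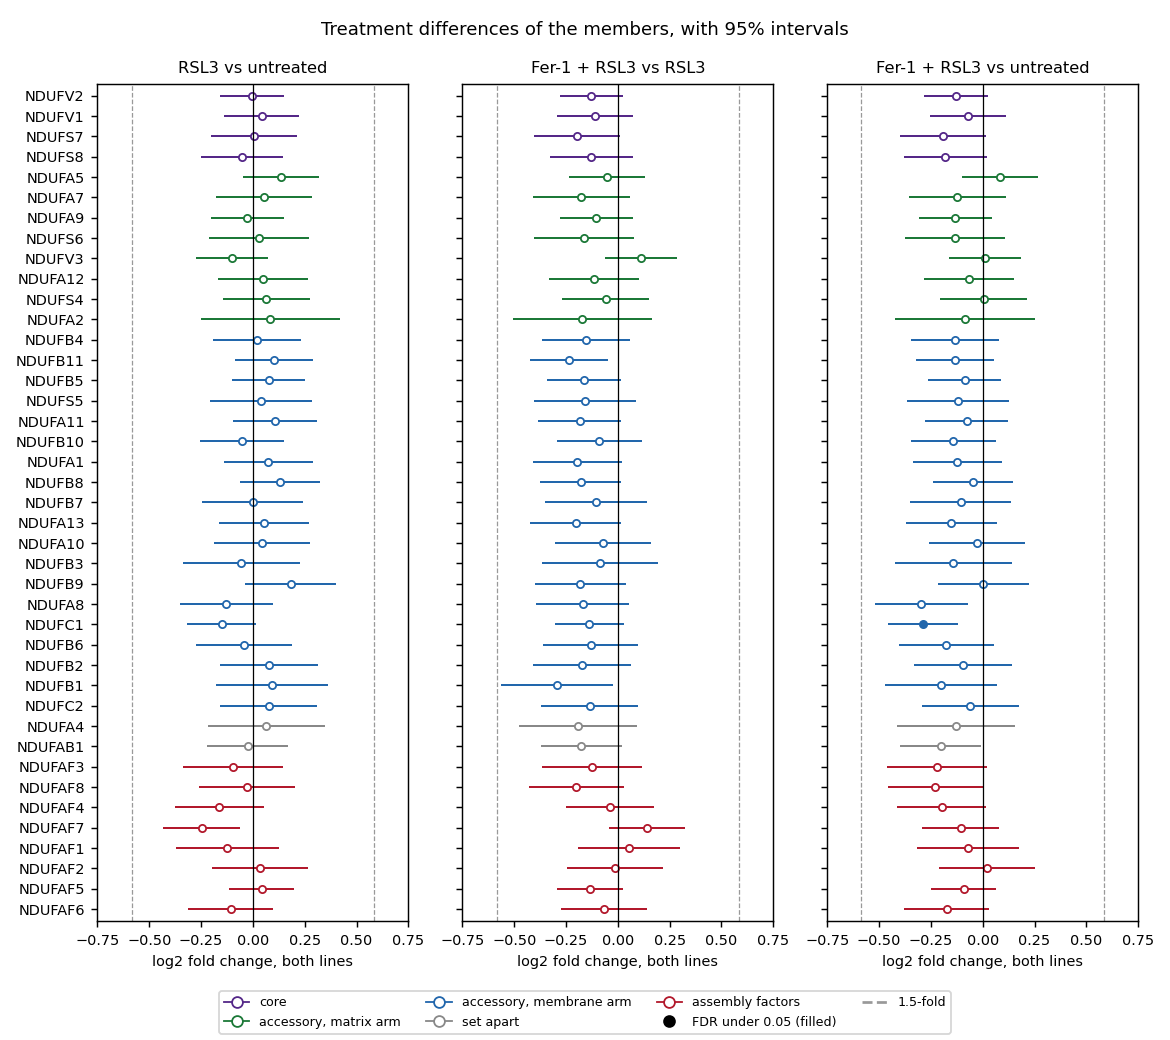
Fitted log2 fold change of 41 of the 42 members (point) with its 95% interval (line), coloured by role and filled where the FDR was under 0.05, for RSL3 against untreated, Fer-1 and RSL3 against RSL3, and Fer-1 and RSL3 against untreated, averaged over both lines, with dashed lines at 1.5-fold. Members centre near 0 after RSL3 (median 0.03), lie mostly below 0 against RSL3 (median -0.13), and NDUFC1 is the 1 member called, against untreated cells.

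Subunits and assembly factors were set against each other within each library, which removes the library's scale. The difference between the mean log2 CPM of the 34 subunits and that of the 8 assembly factors was 1.103 to 1.51 log2 units, with the highest value in the RSL3 library of MM1S passage 16. From untreated to RSL3-treated cells this difference grew in 6 of 6 passages, by 0.147, 0.088 and 0.045 in MM1R passages 4, 6 and 7 and by 0.329, 0.07 and 0.042 in MM1S passages 16, 22 and 23, with a median of 0.079. From RSL3 to Fer-1 and RSL3 it changed by -0.048, -0.188 and -0.056 in MM1R and by -0.349, 0.069 and 0.003 in MM1S, so it was higher in 2 of 6. The passage 16 library of MM1S with RSL3 supplies the largest value in both directions, and without that passage the 5 other changes after RSL3 lay between 0.042 and 0.147.

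The assembly factors had the lower median in each line. The median log2 fold change after RSL3 was -0.05 for the subunits and -0.13 for the assembly factors in MM1R, 0.11 and -0.03 in MM1S, and 0.04 and -0.10 in the average, beside 0.00 for all genes tested. Without the untreated library of MM1R passage 7 the median of all 42 members in MM1R turned from -0.06 to 0.08. Subunit transcripts are shorter than those of the assembly factors, with medians of 676.5 and 1652 bp. Over genes outside the lists, the median of transcripts under 1000 bp (905 genes) minus that of transcripts of 3000 bp or more (6901 genes) moved by 0.20, 0.01 and -0.25 in the same MM1R pairs and by 0.34, 0.09 and 0.12 in the MM1S pairs. It was thus higher in 5 of 6 passages, with its largest value in the same passage 16 pair, and its part in the difference between subunits and assembly factors was not tested.

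**Figure D3:**
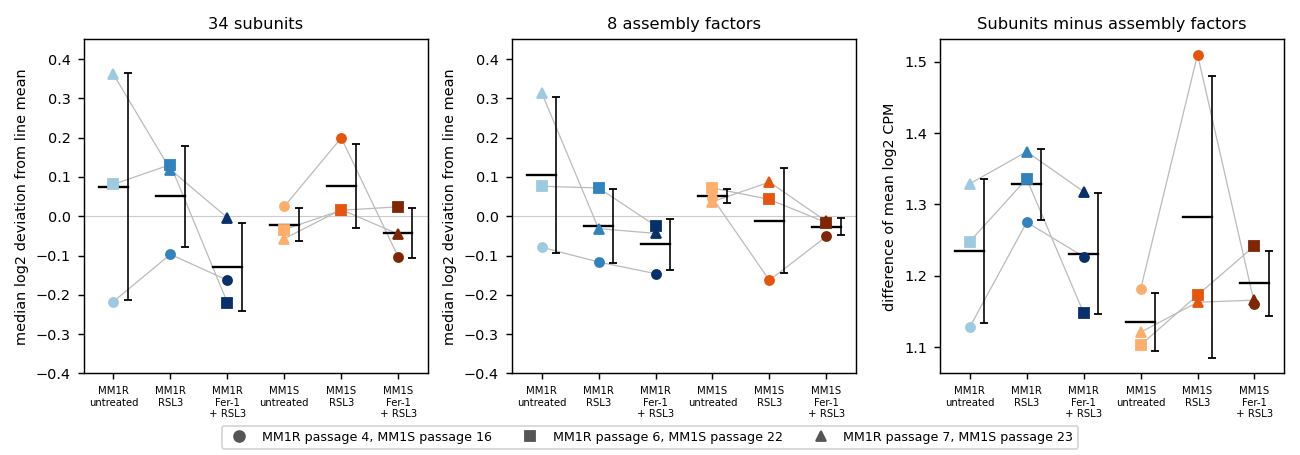
Median log2 deviation of the 34 subunits (left) and the 8 assembly factors (middle) from their line mean, and mean log2 CPM of the subunits minus that of the assembly factors (right), with 1 point per library, grey lines joining a passage, and the group mean and SD (n = 3). On the right all 6 grey lines go up from untreated to RSL3, by 0.042 to 0.329 log2 units, and MM1S passage 16 reaches the highest value, 1.51.

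The 8 assembly factors are given here by their group means. NDUFAF2, a late factor related to the subunit NDUFA12, had group means of 21.5 to 24.2 CPM. NDUFAF5 had 15.6 to 18.4 and NDUFAF6 15.8 to 18.9. NDUFAF3 had 91.5 ± 14.99, 82.8 ± 7.31 and 73.6 ± 3.45 CPM in untreated, RSL3-treated and Fer-1 and RSL3-treated MM1R cells (SD, n = 3), and 101.7 ± 8.94, 98.4 ± 16.2 and 93.1 ± 19.9 in MM1S cells. NDUFAF8 had 68.9 ± 15.6, 63.3 ± 8.11 and 53.3 ± 7.07 in MM1R and 59.0 ± 3.41, 61.7 ± 4.85 and 55.6 ± 5.19 in MM1S. NDUFAF4 had group means of 43.3 to 50.1 CPM, NDUFAF7 of 27.9 to 38.0 and NDUFAF1 of 27.0 to 38.2.

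Fer-1 pre-treatment was next compared with RSL3 alone. Since no group had Fer-1 without RSL3, an effect of Fer-1 itself and a change in the RSL3 response cannot be told apart. No member was called in MM1R, in MM1S or in the average, where 0%, 0% and 0.119% of all genes were, and DESeq2 also called 0 members in each, beside 0.315%, 0.0491% and 1.78% of genes. At an unadjusted p under 0.05 there were 2 members in MM1R, NDUFB11 and NDUFS7 (6.17% of genes), 0 in MM1S (5.75%) and 2 in the average, NDUFB11 and NDUFB1 (12.8%). The estimates were mostly below 0. They were negative for 40 of 42 members in MM1R (median -0.15), 38 in MM1S (-0.11) and 39 in the average (-0.13), beside 6934, 7277 and 7081 of the 14281 genes tested. All 19 accessory subunits of the membrane arm were negative in each line, and the assembly factors had the smaller median, -0.05 in the average against -0.16 for the subunits. The 95% interval lay within 1.5-fold for all 42 members in the average, and for 63.7% of genes. The members share libraries, so these counts are a description. By passage the members were lower in 30, 39 and 36 cases in MM1R and in 36, 19 and 34 in MM1S, and without MM1S passage 16 the MM1S median was -0.02. The subunits' median by passage was -0.08, -0.36 and -0.11 in MM1R and -0.29, 0.02 and -0.06 in MM1S, and the genes outside the lists with transcripts under 1000 bp had medians of -0.07, -0.20 and -0.11 and then -0.22, 0.03 and -0.07 in the same pairs, whose part was not tested. In 5 members, NDUFA1, NDUFB4, NDUFB5, NDUFB8 and NDUFV2, the level was below that of RSL3 alone in all 6 passages, where 6.56% of all genes were, and in 1, NDUFAF7, it was above in all 6, where 8.05% were.

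NDUFB11, an X-linked membrane arm subunit, had the smallest p of this comparison. Its MM1R libraries had 136.5, 149.4 and 143.1 CPM with RSL3 and 124.4, 107.9 and 118.7 with Fer-1 and RSL3, after 126.6, 141.3 and 160 untreated. In MM1S they had 170.2, 131.7 and 130.8 with RSL3, 124.4, 142.4 and 114.8 with Fer-1 and RSL3, and 132.2, 129 and 115.1 untreated. The RSL3 and Fer-1 libraries did not overlap in MM1R and did in MM1S, where passage 22 went the other way (average log2 fold change -0.24, SE 0.087, FDR 0.273). NDUFB1, a small membrane arm subunit, had 25.6, 28.7 and 39.5 CPM untreated, 29.4, 37.5 and 32.8 with RSL3 and 25.5, 25.8 and 27.4 with Fer-1 and RSL3 in MM1R, and 34.04, 23.4 and 25.1, then 36.3, 25.3 and 26.6, then 22.9, 25.6 and 25.9 in MM1S (-0.29, SE 0.126, FDR 0.344). It likewise showed separate groups in MM1R and overlapping groups in MM1S. NDUFS7 had -0.20 (FDR 0.40). In the other direction NDUFAF7 had 0.14 (FDR 0.525), NDUFV3 0.11 (FDR 0.59) and NDUFAF1 0.05 (FDR 0.892), and the last was -0.04 without the RSL3 library of MM1S passage 16, where it had 19.98 CPM, and -0.06 without that passage.

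Against untreated cells, 1 member fell with Fer-1 and RSL3 in the average over both lines, NDUFC1, where 19% of all genes were called. Within the lines 0 members were called, beside 9.22% of genes in MM1R and 4.61% in MM1S. The unadjusted p was under 0.05 for 7 members in MM1R (24.6% of genes), all lower, and for 1 in MM1S (18.8%), while DESeq2 called 1 member in each line, NDUFS7 in MM1R and NDUFC1 in MM1S, beside 14% and 8.8% of genes. The median of the 42 members was -0.23 in MM1R, -0.01 in MM1S and -0.12 in the average, and 41, 23 and 37 of them were below 0, beside 6935, 7180 and 7084 of the 14281 genes tested. By passage the subunits' median was 0.03, -0.27 and -0.38 in MM1R and -0.10, 0.09 and 0.01 in MM1S, and that of the genes with transcripts under 1000 bp was 0.05, -0.15 and -0.25 and then 0.00, 0.07 and 0.01. The part of transcript length was not tested. Without the untreated MM1R library of passage 7 the MM1R median was -0.06, and without the Fer-1 library of MM1R passage 6 it was -0.19. In all 6 passages NDUFA8, NDUFA9, NDUFAB1, NDUFAF4, NDUFB3 and NDUFC1 were lower, 6 members where 16% of genes were, and 0 members were higher, where 17.1% were.

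NDUFC1, a small accessory subunit of the membrane arm, had 42.1, 47.9 and 52.8 CPM in untreated MM1R cells of passages 4, 6 and 7, 40.7, 48.6 and 44.1 with RSL3, and 41.5, 36.1 and 42.9 with both agents. MM1S cells had 47.8, 41.7 and 43.3 CPM untreated, 37, 40.8 and 37.6 with RSL3, and 33.9, 36.6 and 35.2 with Fer-1 and RSL3. The untreated and Fer-1 libraries did not overlap in MM1S and overlapped in MM1R, and every passage was lower. The average log2 fold change was -0.29 (SE 0.077, 95% interval -0.45 to -0.13, FDR 0.015), -0.25 with an FDR of 0.0415 without the Fer-1 library of MM1R passage 6, and the call held without each of the 18 libraries in turn. It was lost without MM1S passage 16, without MM1R passage 7 and with no filter on low counts, with a highest FDR of 0.0793.

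With passage as a block more members were called lower. In MM1R these were 5, NDUFA8, NDUFAF3, NDUFAF8, NDUFS7 and NDUFS8, beside 22.2% of all genes, and in MM1S 1, NDUFC1 (FDR 0.0448), beside 14.7%. In the average they were 5, NDUFA8, NDUFAB1, NDUFAF3, NDUFAF8 and NDUFC1, beside 33.3%. NDUFA8, an accessory subunit of the membrane arm on the intermembrane space side, had 50.4, 64.1 and 78.4 CPM untreated and 45.2, 48.6 and 54.5 with Fer-1 and RSL3 in MM1R, and 52.0, 55.4 and 50.8 and then 40.3, 49.1 and 47.0 in MM1S. It was lower in each passage, with groups that overlapped in MM1R and not in MM1S (average -0.30, FDR 0.0549, and 0.00456 with the block). In MM1R the log2 fold changes without the block were -0.40 for NDUFS7 (FDR 0.0765), -0.38 for NDUFA8 (FDR 0.118), -0.37 for NDUFAF8 (FDR 0.137), -0.35 for NDUFS8 (FDR 0.107) and -0.31 for NDUFAF3 (FDR 0.235). The NDUFS7 value rested partly on the Fer-1 library of passage 6, without which it was -0.26 (FDR 0.30).

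**Figure D4:**
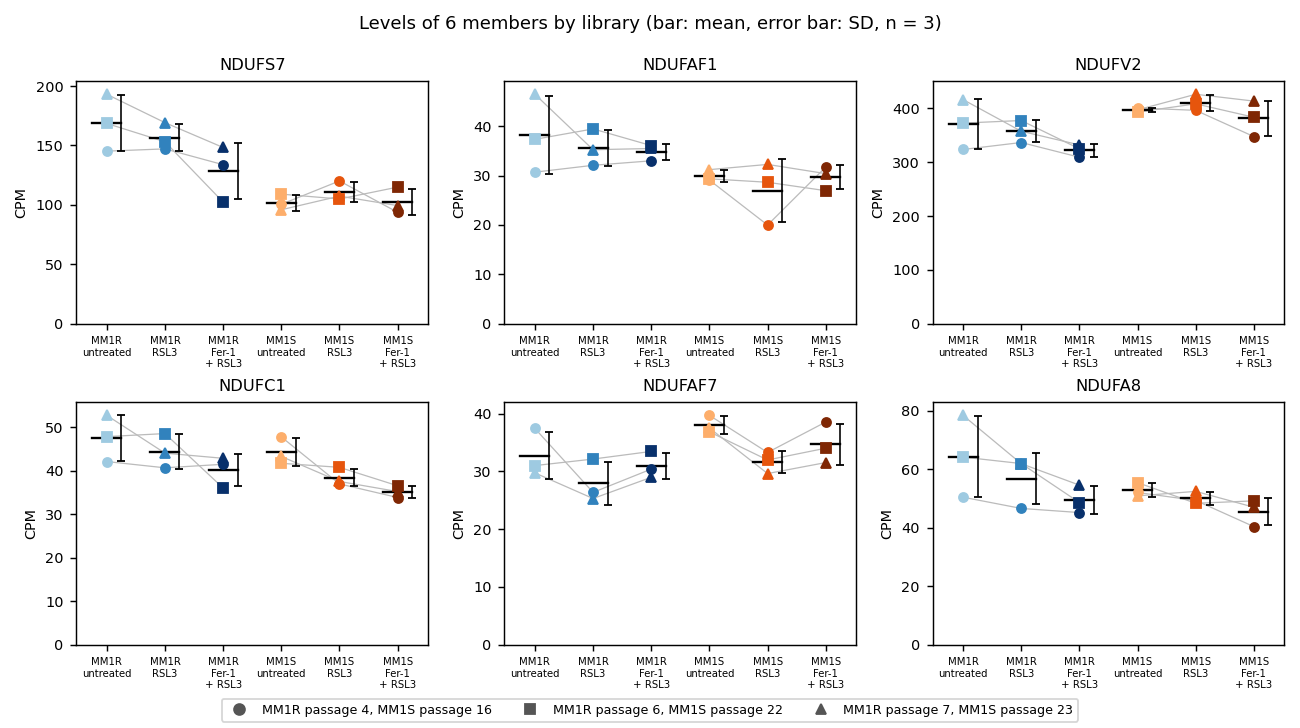
CPM of NDUFS7, NDUFAF1, NDUFV2, NDUFC1, NDUFAF7 and NDUFA8, with 1 panel per gene, 1 point per library, grey lines joining a passage, and the group mean and SD (n = 3). NDUFS7 lies at 102.3 to 193.1 CPM in MM1R and at 93.7 to 120.1 in MM1S, and the NDUFC1 group means go from 44.3 to 38.5 to 35.2 CPM in MM1S.

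NDUFS7 separated the untreated lines. Its untreated MM1R libraries had 145.2, 168.5 and 193.1 CPM and its untreated MM1S libraries 100.4, 109 and 95.8. With RSL3 they had 147.1, 153.1 and 169.2 in MM1R and 120.1, 104.9 and 107.3 in MM1S, and with Fer-1 and RSL3 133.8, 102.3 and 148.3 in MM1R and 93.7, 114.9 and 99.3 in MM1S. The lines did not overlap untreated or with RSL3, and the Fer-1 library of MM1R passage 6, the one with raised NR3C1, lay inside the MM1S range. The untreated difference was 1.66-fold (log2 0.73, SE 0.136, 95% interval 0.44 to 1.02, FDR 0.00284), and NDUFS7 was the 1 member called of 42, where 10.5% of all genes were. The call held without each library in turn, with a highest FDR of 0.0205. Averaged over the 3 treatments it was 0.52 (SE 0.079, FDR 0.000121) and 0.56 (FDR 2.53e-05) without the library with raised NR3C1. A stretch of its transcript (51.3%) is shared with 2 other annotated genes, so their reads may be included. NDUFS7 was not alone among mitochondrial genes. SDHAF3 of complex II, UQCR11 of complex III, ATP5F1D and ATPAF2 of complex V, POLRMT and ATF5 were also called higher in untreated MM1R. UQCR11 had group means of 328.8 ± 58.7 CPM in untreated MM1R and 199.4 ± 4.07 in untreated MM1S (SD, n = 3). In the Fer-1 library of MM1R passage 6 UQCR11 had 213.5 CPM, the lowest of its group.

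Most other members were a little above their MM1S level in untreated MM1R cells without passing the test. The estimate was above 0 for 36 of 42, with a median of 0.18 log2 units. This rested partly on the untreated MM1R library of passage 7, since without it 26 of 42 were above 0 and the median was 0.04. NDUFA4 had 113.6, 139 and 199.1 CPM in untreated MM1R and 126.7, 95.9 and 111.5 in untreated MM1S cells (log2 0.44, FDR 0.156), and with the block it was called beside NDUFS7 (FDR 0.0305), where 24.1% of genes were. Since no passage is shared between the lines, the block sets a line difference against the spread within passages and leaves out that between them, so its calls do not support a line difference. With RSL3 it had 137.8, 158.6 and 150.9 in MM1R and 157.3, 104.8 and 107.2 in MM1S, and with Fer-1 and RSL3 122.9, 113 and 140.8 and 120.3, 101.3 and 114. The lines overlapped in all 3 states. NDUFAF7 (-0.22, FDR 0.289), NDUFA5 (-0.19, FDR 0.354) and NDUFV2 (-0.10, FDR 0.594) had the smallest p among members lower in MM1R.

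Averaged over the 3 treatments, 4 members were called between the lines, where 29.4% of all genes were. The 9 libraries of a line came from 3 passages whose libraries correlate, so 3 cultures per line stand behind these values and the p-values are too small. NDUFS7, NDUFAF1 and NDUFV3 were higher and NDUFV2 lower in MM1R. The count was 7 without the MM1R library with raised NR3C1 and 8 without the RSL3 library of MM1S passage 16. NDUFAF1, which builds the membrane part of the ubiquinone module with ECSIT, ACAD9 and TMEM126B, had 30.7, 37.4 and 46.5 CPM untreated, 32.1, 39.5 and 35.3 with RSL3 and 33.0, 36.1 and 35.5 with Fer-1 and RSL3 in MM1R, and 29.1, 29.4 and 31.2, then 19.98, 28.7 and 32.3, then 31.7, 27.0 and 30.4 in MM1S. The lines overlapped untreated and with RSL3 and not with Fer-1 and RSL3. The log2 difference was 0.33 (SE 0.094, FDR 0.0145). It was called without each library in turn and not without MM1R passage 7 (FDR 0.0657).

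NDUFV3, an accessory subunit beside the NADH site, had 86.1, 95.3 and 100.7 CPM untreated, 83.9, 92.8 and 80.3 with RSL3 and 93.3, 86.7 and 85.1 with Fer-1 and RSL3 in MM1R, and 86.8, 71.5 and 74.0, then 64.3, 82.4 and 74.8, then 90.0, 84.3 and 76.9 in MM1S. NDUFV2 (18:9102628–9134343 in hg19) had 323.7, 372.8 and 416.5, then 336.7, 377.6 and 357.7, then 309.3, 325 and 332.2 in MM1R, and 401, 393.2 and 397.4, then 396.5, 408.6 and 426.4, then 347.7, 383.7 and 413.7 in MM1S. The lines overlapped for both genes untreated, and NDUFV2 did not overlap with RSL3 or with Fer-1 and RSL3. The log2 difference was 0.19 for NDUFV3 (SE 0.065, FDR 0.0358) and -0.18 for NDUFV2 (SE 0.058, FDR 0.0259). These calls held in 9 and 10 of the 18 fits that each left out 1 library, with highest FDR of 0.0809 and 0.0882. With the block 14 members were called between the lines, 9 higher and 5 lower in MM1R, beside 43.1% of all genes, under the same limit as for NDUFA4.

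The lines did not differ detectably in how the members responded. For the difference in the RSL3 effect 0 members and 0% of all genes were called, and at an unadjusted p under 0.05 0 members were, beside 1.55% of genes. For Fer-1 and RSL3 against RSL3 the counts were again 0 members and 0% of genes, and 0 members beside 0.896% at an unadjusted p under 0.05. DESeq2 also called 0 members and 0% of genes in both. The differences in the RSL3 effect (MM1R minus MM1S) ran from -0.34 for NDUFC2 (SE 0.216) to 0.11 log2 units with a median of -0.16, and their 95% intervals reached from -0.92 to 0.53. Those for Fer-1 and RSL3 against RSL3 ran from -0.18 to 0.10 with a median of -0.06. With 3 libraries a group the intervals lay within 1.5-fold for 23 of 42 members in the first and 35 of 42 in the second, so smaller differences between the lines could not be told from 0.

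The wider set of complex I assembly factors, 12 genes without the NDUF name, had 0 genes called after RSL3 in the average over both lines. There 15.5% of all genes were called. At an unadjusted p under 0.05 there was 1 in each direction, beside 30.2% of all genes. After Fer-1 and RSL3, 1 of 12 rose against untreated cells in that average, where 19% of all genes were called. It was COA1, a membrane factor of complexes I and IV (0.33, SE 0.065, FDR 0.00223). Between the untreated lines TIMMDC1, a membrane arm factor, was lower in MM1R (-0.58, SE 0.111, FDR 0.00344), where 10.5% of all genes were called. In the average over treatments, where 29.4% were called, TIMMDC1 (-0.55) and FOXRED1 (-0.23) were lower and DMAC1 (0.33) higher. The COA1 call and the TIMMDC1 call between untreated lines held without each library in turn, and the DMAC1 call held in 12 of 18 such fits.

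The genes of the other respiratory complexes are given beside complex I. After RSL3, in the average over both lines, 15.5% of all genes were called. Of complex II 0 of 8 genes were called, of complex III 0 of 15, of complex IV 1 of 20 and of complex V 0 of 17. Listed genes that were not tested are left out of these counts. UQCRC2 (0.43 to 1.46 CPM over the libraries), ATP5F1E (0.27 to 1.715) and ATP5ME (2.03 to 5.94) had very low levels and stay in the counts and medians. The medians were -0.02, -0.02, 0.04 and -0.01 log2 units, beside 0.03 for complex I. At an unadjusted p under 0.05 there were 2, 1, 1 and 0 genes, beside 30.2% of all genes. The 1 gene called was COX19, a copper-handling factor of cytochrome c oxidase, which rose by 0.41 (SE 0.092, FDR 0.00697). Against RSL3 alone, Fer-1 and RSL3 gave medians of -0.05, -0.11, -0.14 and -0.14, beside -0.13 for complex I. Against untreated cells 19% of all genes were called with Fer-1 and RSL3. Of complex II 2 of 8 genes fell, SDHA (-0.38, FDR 0.0025) and SDHAF1 (-0.47, FDR 0.0277), and of complex III 1 of 15, UQCRFS1 (-0.25, FDR 0.0254). Of complex V 2 of 17 fell, ATP5F1A (-0.25, FDR 0.0226) and ATP5F1D (-0.32, FDR 0.0411), while COX19 rose (0.56, FDR 0.000574). The SDHA and COX19 calls held without each library in turn, SDHAF1 in 14, UQCRFS1 and ATP5F1A in 12 and ATP5F1D in 8 of 18 fits.

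Factors known to regulate mitochondrial genes were measured as a list of 16, chosen with earlier results of these data known. After RSL3, 4 rose and 5 fell in the average over both lines, where 15.5% of all genes were called, and all of these but YY1 lay outside the range of the members, -0.25 to 0.18. ESRRA, the estrogen-related receptor alpha, had 37.3 to 48.7 CPM in the 6 untreated libraries (median 41.5), 27.7 to 31.7 with RSL3 (median 29.1) and 22.8 to 32.2 with Fer-1 and RSL3 (median 26.7), so untreated libraries did not overlap with either treatment (-0.53, SE 0.086, FDR 0.000839). Its coactivator PPARGC1B had 20.6 to 29.1, 10.3 to 22.8 and 13.8 to 18.3 CPM and fell by 0.78 log2 units (FDR 0.00184). GABPB1, a subunit of the ETS factor GABP, had 45.2 to 57.6 CPM untreated, 57.5 to 81.1 with RSL3 and 76.4 to 91.4 with Fer-1 and RSL3 (0.46, SE 0.088, FDR 0.00253).

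The stress factors DDIT3 (2.55, SE 0.288) and ATF4 (0.91, SE 0.137) rose, as did the coactivator PPARGC1A (1.04, SE 0.31, FDR 0.0314). PPARGC1A had 22.4, 17.3 and 11.8 CPM untreated and 55.01, 14.2 and 37.2 with RSL3 in MM1R, and 28.4, 30.3 and 26.1 and then 108.2, 33.1 and 33.99 in MM1S. MM1R passage 6 was lower with RSL3, and without the RSL3 library of MM1S passage 16 the log2 fold change was 0.65 and not called. The mitochondrial RNA polymerase POLRMT (-0.51, FDR 0.0122), the coactivator PPRC1 (-0.43, FDR 0.0308) and YY1 (-0.24, FDR 0.0337) fell. The calls of PPARGC1A, PPRC1 and YY1 held in 10, 11 and 11 of the 18 fits that left out 1 library, and the other 6 in all 18. After Fer-1 and RSL3 the fold changes against untreated cells were 0.72 for GABPB1, -0.66 for ESRRA, -0.71 for PPARGC1B, -0.54 for POLRMT, -0.57 for PPRC1 and -0.26 for YY1, each called. GABPA, NRF1 and TFAM were not called after RSL3. No relation between a regulator and the members was tested.

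**Figure D5:**
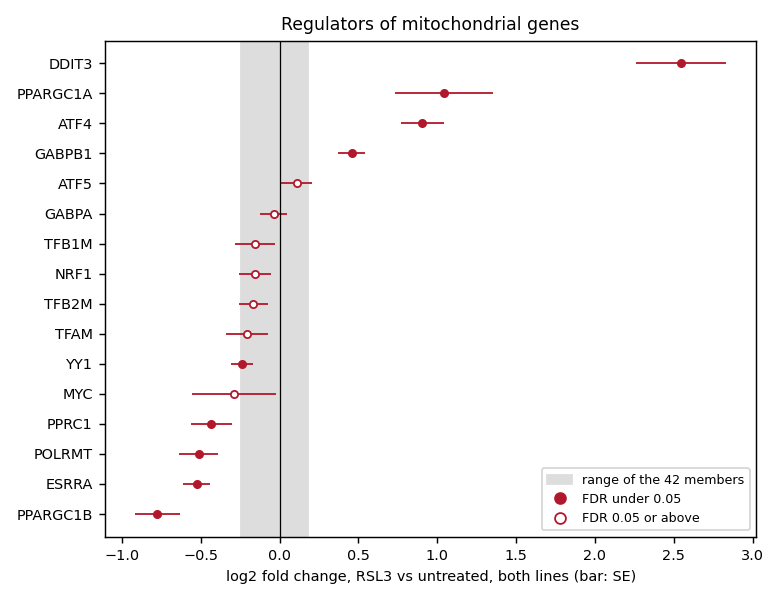
Fitted log2 fold change of the 16 regulators after RSL3 against untreated cells, averaged over both lines (points, filled where the FDR was under 0.05; lines, SE), with the range of the 42 members shaded. DDIT3, PPARGC1A, ATF4 and GABPB1 lie above the shaded range of -0.25 to 0.18, and PPRC1, POLRMT, ESRRA and PPARGC1B below it. MYC, an open point at -0.29, also lies below the range.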

How the data were processed

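RNA of 18 cultures was sequenced by the authors on a BGISEQ-500 in pairs of 50 bp reads. Per the submitters' processing notes, FastQC 0.11.5, STAR 2.7.3a, hg19 and DESeq2 were used. The counting tool, the annotation and the use of strand are not given in the sources used here, so reads of overlapping genes and pseudogenes could not be separated. The authors deposited raw read counts, which were used as deposited, and a table of normalized signal values (counts divided by a size factor), which was not used here.

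Genes were tested with edgeR 4.0.16 (R 4.3.3, limma 3.58.1) by the quasi-likelihood test on TMM-scaled counts (factors 0.864 to 1.06), with filterByExpr at a minimum count of 10, in 1 model of 6 group means with 12 residual degrees of freedom. Benjamini-Hochberg adjustment ran over all 14281 genes tested, and genes were called at an FDR under 0.05. CPM values are TMM-scaled, and log2 CPM used a prior count of 2. All comparisons share control or RSL3 libraries. Members and lists were chosen with earlier results of these data known. Members are given by library where they were called without the block or were among those with the smallest p in either direction, and other members and the genes of other lists mostly by fold changes or group means. The values of 1 member are not reported here, though it stays in the counts and medians. NDUFA8 was added after its values were seen, as were the values of the untreated library of MM1R passage 7.

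The labels give a cell passage for each library, which pairs libraries within a line. Deviations of libraries of 1 passage from their group means correlated at 0.0338 to 0.516 in MM1R (median 0.25, 9 pairs) and at 0.216 to 0.681 in MM1S (median 0.416, 9 pairs). Replicates of a group differed beyond counting noise (chi-square per degree of freedom 8.26 to 171). Passages are cultures of 1 line, so p-values measure the spread between cultures. The main fit has no passage term, so its treatment tests do not use the pairing and may miss differences within passages. A fit with passage as a block (8 residual degrees of freedom), DESeq2 1.42.0, other scalings and filters, and leaving out each library were alternatives. Leaving out all libraries of MM1S passage 16 or MM1R passage 7 was chosen after seeing the data. Gene positions and lengths come from GENCODE v44 lifted to hg19, joined by symbol, and promoters from RefSeq on GRCh38.p14, where the first entry was used for the 5 members with several.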

Additional observations from a re-analysis of the deposited data

Results flagged for a closer look

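A numbered copy of the NDUFA6 symbol, an accessory subunit of the matrix arm, held counts that enter no comparison above. Its first copy had 96 to 174 counts per library, with a median of 126, above the limit that a count of 0 allows (3 counts), while the plain NDUFA6 symbol was listed at 0 to 1 and the other copies at 0. Which transcripts the copies stand for is not given in the sources used here.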

How the results depend on the processing

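Of 390 recomputed counts of members called, 339 stayed within 1.5 times the reported count. All 364 recomputed medians moved by less than the spread of the libraries, the combined SD of the library medians in the groups compared. This limit is wide. It also passed the MM1R median after RSL3, which changed sign without the untreated library of passage 7, so it does not show that the medians are stable. For RSL3 in the average (0 members), DESeq2 and RLE scaling gave 1, the passage block 2, an unadjusted p under 0.05 gave 1 and leaving out 1 library 0 to 1, and in MM1S an unadjusted p gave 1. For Fer-1 and RSL3 against RSL3, an unadjusted p gave 2 members in MM1R and 2 in the average. The NDUFAF1 estimate there reversed to -0.041 without the RSL3 library of MM1S passage 16 (-0.041 to 0.128 leaving out 1 library) and to -0.063 without that passage. For Fer-1 and RSL3 against untreated cells in MM1R (0), DESeq2 gave 1, the block 5, an unadjusted p 7 and leaving out 1 library 0 to 5, the last without the untreated library of passage 4. In MM1S (0) DESeq2, the block and an unadjusted p each gave 1. In the average (1) DESeq2, RLE, upper-quartile scaling, a filter on all 18 libraries and a fit of the compared groups alone each gave 2, the block 5, an unadjusted p 4, leaving out 1 library 1 to 4, and no filter, dropping MM1S passage 16, dropping MM1R passage 7 and a log2 fold change over 1 each gave 0. Between untreated lines (1) the block gave 2, dropping MM1S passage 16 gave 3, a log2 fold change over 1 gave 0, an unadjusted p 5 and leaving out 1 library 1 to 3. Over the 3 treatments (4) DESeq2, upper-quartile scaling and dropping MM1S passage 16 gave 9, a filter on all 18 libraries 8, the block 14, dropping MM1R passage 7 gave 2, a log2 fold change over 1 gave 0, an unadjusted p 12 and leaving out 1 library 2 to 11. The highest counts, 4, 3 and 11, came without the untreated MM1R library of passage 4, and the lowest over the 3 treatments, 2, without the MM1R Fer-1 library of passage 4 or any MM1S library of passage 23, while dropping the untreated MM1S library of passage 16 gave 7. The 1 call for RSL3 came without the untreated library of MM1R passage 7 or the RSL3 library of MM1R passage 6, and in the average for Fer-1 and RSL3 against untreated cells dropping the RSL3 library of MM1R passage 4 or of MM1S passage 16 gave 2. The causes were not tested. An unadjusted p under 0.05 called 32.4% of all genes for Fer-1 and RSL3 against untreated cells in the average. It called 24.8% between untreated lines and 40% over the 3 treatments. DESeq2 called 3163 of 14268 genes for Fer-1 and RSL3 against untreated cells in the average, and 4492 over the 3 treatments. Shares of all genes under other scalings, filters and left-out libraries are not given here, so those counts cannot be set against them. The member with the fewest counts, NDUFA2, had 101 to 199 per library and is 1 of the 2 members whose interval for RSL3 in MM1S reached past 1.5-fold.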
